A study of Mus musculus with 6 samples.

Results

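The genes described here form the core of the insulin-like growth factor (IGF) system with its imprinted members: the ligand gene Igf2, the neighbouring non-coding RNA gene H19, the receptor genes Igf2r and Igf1r, the adaptor gene Grb10, and the binding protein genes Igfbp2, Igfbp3, Igfbp4, Igfbp5 and Igfbp7. The 10 genes were listed by name, and each was matched by the platform annotation's symbol to rows that carry a single gene, with the row of highest mean standing for the gene. Of the 10, 9 had such a row, out of 22180 genes tested. The only row with the name H19 is annotated to H19 and Mir675 together, so H19 was not analysed here.

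All 6 samples were mouse embryonic stem cells (ESCs) lacking Dgcr8 (Dgcr8-/-), the RNA-binding partner of Drosha without which canonical microRNAs (miRNAs) are not made, so the controls share this deletion. The control group, 3 samples, expressed a control hairpin, and the miR-302 group, also 3, a hairpin labelled sh-miR-302 that the labels call a mimic of miR-302. Total RNA was hybridised to 1 array per sample, and the values are log2 expression levels from RMA. The sources used here give neither the promoter of the hairpin nor the ESC clone. Samples within a group are described as biologically independent, without naming the unit (clone, culture or infection), and their number limits the precision of each value. The comparison asks which transcripts differ when miR-302 is supplied to cells that cannot make canonical miRNAs.

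IGF2 is a fetal and placental growth factor that signals through the receptor tyrosine kinase IGF1R and the insulin receptor. IGF2R, the cation-independent mannose-6-phosphate receptor, takes IGF2 to lysosomes and so lowers its supply, GRB10 binds the activated receptors and restrains their signal, and the secreted binding proteins hold IGFs outside the cell and release them on proteolysis. Igf2 is expressed mainly from the paternal copy, whereas H19, Igf2r and, in most tissues, Grb10 are expressed from the maternal copy.

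The introduced family is shown by the mature 3p strands of miR-302b, miR-302c and miR-302d in RefSeq (GRCm38.p6, 5′ to 3′, all from the plus strand of chromosome 3), because it is the only designed difference between the groups. Capitals mark the seed, bases 2 to 8. The seed of miR-302b and miR-302d is AAGUGCU, and miR-302c, listed without the leading U, carries the same letters shifted by 1 base. The family also holds miR-302a. The labels do not say which family member the hairpin was modelled on.
mmu-miR-302b-3p: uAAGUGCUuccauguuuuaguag
mmu-miR-302c-3p: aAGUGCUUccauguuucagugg
mmu-miR-302d-3p: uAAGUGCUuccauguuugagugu

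The upstream sequences below belong to the 4 genes that passed the test, Igfbp7 and Grb10 (lower with miR-302) and Igf2 and Igfbp4 (higher). Each is the 250 bases before an annotated RefSeq start, written 5′ to 3′ in the direction of the gene, and capitals mark the GC box GGGCGG or its reverse complement. For Igf2, with 4 annotated starts, and Grb10, with 2, the start with the most CG dinucleotides is shown. Promoters were matched for 9 of the 10 genes, in 14 windows.
Igfbp7, GRCm38.p6 chr5:77408046-77408295, minus strand: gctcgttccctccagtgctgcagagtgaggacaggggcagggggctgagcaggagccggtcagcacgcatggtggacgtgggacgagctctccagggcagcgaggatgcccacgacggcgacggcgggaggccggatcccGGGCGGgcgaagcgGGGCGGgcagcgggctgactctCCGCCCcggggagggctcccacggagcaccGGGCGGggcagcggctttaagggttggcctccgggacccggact
Grb10, GRCm38.p6 chr11:12037421-12037670, minus strand: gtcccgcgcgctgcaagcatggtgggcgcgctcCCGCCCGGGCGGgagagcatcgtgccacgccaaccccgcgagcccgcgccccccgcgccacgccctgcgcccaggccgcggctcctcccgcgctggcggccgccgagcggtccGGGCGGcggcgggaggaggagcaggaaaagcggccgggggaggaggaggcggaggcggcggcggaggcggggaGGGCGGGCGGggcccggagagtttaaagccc
Igf2, GRCm38.p6 chr7:142658805-142659054, minus strand: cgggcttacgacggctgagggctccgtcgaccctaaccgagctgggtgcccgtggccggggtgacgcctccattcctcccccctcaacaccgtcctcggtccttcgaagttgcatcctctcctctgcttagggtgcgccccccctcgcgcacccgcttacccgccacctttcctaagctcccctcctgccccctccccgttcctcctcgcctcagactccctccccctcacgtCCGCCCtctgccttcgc
Igfbp4, GRCm38.p6 chr11:99040994-99041243, plus strand: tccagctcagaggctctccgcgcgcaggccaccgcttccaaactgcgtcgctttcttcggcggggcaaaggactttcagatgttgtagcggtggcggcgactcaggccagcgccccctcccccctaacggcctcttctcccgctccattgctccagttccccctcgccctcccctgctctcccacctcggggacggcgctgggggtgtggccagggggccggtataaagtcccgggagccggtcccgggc

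The Grb10 window holds 40 CG dinucleotides, a number reached by 1.31% of all 32851 windows, and 5 GC box matches. The Igfbp7 window holds 26 CG and 4 GC boxes, that of Igf2 22 CG and 1 GC box, and that of Igfbp4 22 CG and no GC box. The median of all windows was 6 CG. A GC box, searched on both strands with overlapping matches counted, was present in 7 of the 14 windows and in 32.7% of all windows. The TATA box letters TATAAA were present only in the Igfbp4 window among the 14, and in 12.4% of all windows. The Igf2 windows not shown held 6, 10 and 1 CG, and the Grb10 window not shown held 8 CG and 0 GC boxes, so the counts for these genes depend on the start.

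With miR-302, the ligand gene, the adaptor gene and some of the binding protein genes passed the test, and the direction differed between members. Igf2 and Igfbp4 were higher, Igfbp7 and Grb10 were lower, and Igf2r, Igf1r, Igfbp2, Igfbp3 and Igfbp5 were not called (limma, Benjamini-Hochberg adjusted p under 0.05 over all genes). That is 2 of 9 higher, against 7.18% of all genes tested, and 2 of 9 lower, against 9.25% (4 of 9 either way, against 16.4%). In 7 of the 9 the values of the 2 groups did not overlap, which held for 35.8% of all genes. The members' median log2 difference was 0.09, and that of all genes 0.01. In bulk RNA such as this, fewer cells of a type and less RNA per cell cannot be told apart. The fall of Igfbp7 was the 8th largest of all genes and the rise of Igf2 the 23rd largest.

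**Figure D1:**
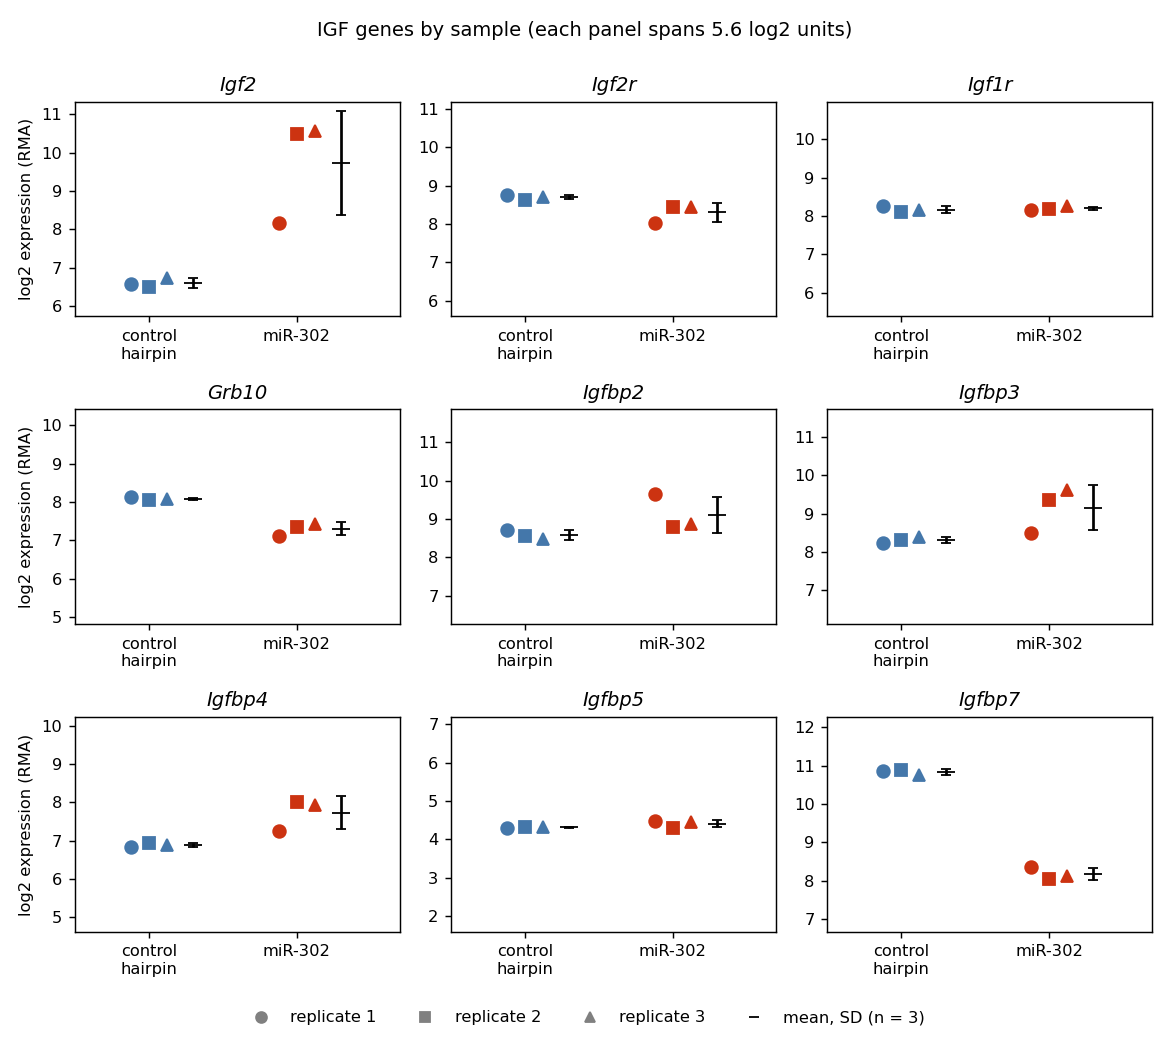
Log2 expression of the 9 measured IGF genes in each of the 6 samples, with the mean and SD of each group (n = 3). Igfbp7 and Grb10 are lower in all 3 miR-302 samples, and Igf2, Igfbp3 and Igfbp4 are less far above the controls in miR-302 replicate 1 than in replicates 2 and 3.

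The ligand gene Igf2 (Entrez 16002) was 6.58, 6.49 and 6.73 in control replicates 1 to 3 and 8.16, 10.48 and 10.56 in miR-302 replicates 1 to 3. Every miR-302 value lay above every control value, and replicate 1 stood well below the other two of its group. The mean rose from 6.60 ± 0.12 to 9.73 ± 1.36 (SD, n = 3), a log2 difference of 3.13 ± 0.61 (SE; 95% interval 1.69 to 4.58), 8.77-fold (limma, adjusted p = 0.0168). Without miR-302 replicate 1 the difference was 3.92 (adjusted p = 4.15e-05), and without any 1 of the other 5 samples it was 2.72 to 3.20 and was not called (adjusted p from 0.0554 to 0.0629). The mean level of 11 trophectoderm markers, given below with the other cell types, was also lowest in replicate 1 among the miR-302 samples. The name Igf2os marks an antisense transcript at the same locus, and whether the row separates the strands is not stated by the annotation used here.

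The Igf2 row was called, and the rows of Mir483, Ins2 and Mrpl23 near it were not. H19, which lies between Mrpl23 and Igf2 in the RefSeq order, was not analysed. Mir483, a miRNA gene within an intron of Igf2, was 7.59, 7.11 and 7.39 in the controls and 7.13, 7.19 and 7.35 with miR-302, overlapping ranges with a log2 difference of −0.14 (95% interval −0.46 to 0.18; adjusted p = 0.545). Ins2, the insulin gene that is the next coding gene after Igf2 in the RefSeq order, was 4.48 ± 0.20 and 4.44 ± 0.19 (adjusted p = 0.906), and a level this low cannot be told from background on these values. Mrpl23, the coding gene before Igf2 in that order, was 10.17, 10.11 and 9.97 in the controls and 10.33, 10.26 and 10.38 with miR-302. Its groups did not overlap, and the log2 difference was 0.24 (limma, adjusted p = 0.0949). Of 25 measured genes in the chromosome neighbourhoods of Igf2 with H19, Igf2r and Grb10, 5 were higher, against 7.18% of all genes. None were lower, against 9.25% (limma; 10 higher and 0 lower at an unadjusted p under 0.05). At that unadjusted threshold, 3145 of all 22180 genes were higher and 3553 lower. Their median log2 difference was 0.12. Without miR-302 replicate 1, 8 were higher and 2 lower. That fit called 5395 of all 22180 genes, against 3643 with all samples. With all samples, Airn at Igf2r and Ddc and Cobl beside Grb10 were not called. Ascl2, a transcription factor gene of the trophoblast, rose by 1.82 ± 0.17 (SE; adjusted p = 0.0016), from 5.83, 5.66 and 5.68 to 7.15, 7.66 and 7.82. The actin-binding protein gene Lsp1 rose by 0.81 ± 0.08 and the troponin T gene Tnnt3 by 1.04 ± 0.17. Syt8, a synaptotagmin gene, rose by 0.81 ± 0.16, and Cdkn1c, which encodes the cell cycle inhibitor p57, by 1.90 ± 0.46. With miR-302, Cdkn1c was 6.52, 8.28 and 8.20 in replicates 1 to 3, lowest in replicate 1 as Igf2 was, against 5.46, 6.01 and 5.84 in the controls. The calls of Ascl2, Lsp1 and Tnnt3 were kept in all 6 fits that left out 1 sample, that of Syt8 was lost in 3 and that of Cdkn1c in 5.

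Of the receptors, Igf2r (Entrez 16004) was 8.75, 8.64 and 8.72 in the controls and 8.03, 8.44 and 8.44 with miR-302. The miR-302 values all lay below the controls, with replicate 1 the lowest, and the log2 difference was −0.40 ± 0.12 (SE; 95% interval −0.70 to −0.10; limma, adjusted p = 0.0751). It was not called with all samples, and it was called without miR-302 replicate 1 (−0.26, adjusted p = 0.0374). Airn, the non-coding RNA antisense to Igf2r whose transcription silences the paternal Igf2r copy in differentiated tissues, was 4.58, 4.69 and 4.52 in the controls and 4.72, 5.21 and 4.94 with miR-302 (log2 difference 0.36, adjusted p = 0.115). Its control values were close to those of Ins2, a level that cannot be told from background.

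Igf1r (Entrez 16001), the receptor gene that transmits the IGF signal, was 8.26, 8.10 and 8.15 in the controls and 8.17, 8.18 and 8.25 with miR-302. The ranges overlapped, and the log2 difference was 0.03 with a 95% interval from −0.15 to 0.21 (limma, adjusted p = 0.835). The insulin receptor gene Insr was 7.71, 7.52 and 7.57 against 7.12, 7.53 and 7.59, again with overlapping ranges (−0.19, 95% interval −0.51 to 0.14; adjusted p = 0.419).

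The adaptor gene Grb10 (Entrez 14783) fell in every miR-302 sample. It was 8.12, 8.06 and 8.08 in the controls and 7.11, 7.36 and 7.44 with miR-302, with no overlap and with replicate 1 the lowest. The mean went from 8.09 ± 0.03 to 7.30 ± 0.17 (SD, n = 3), a log2 difference of −0.78 ± 0.10 (SE; 95% interval −1.02 to −0.55), 1.72-fold lower (limma, adjusted p = 0.0041). The call was kept in all 6 fits that left out 1 sample, with differences from −0.85 to −0.69. Its neighbours in the gene order, Ddc and Cobl, were not called, with differences of −0.16 and 0.02. Grb14, a relative of Grb10 in the same adaptor family, fell by 0.49 in log2 units (adjusted p = 0.0297), but 3 of the 6 fits with a sample left out did not call it. The family member Grb7 was not called (−0.38, adjusted p = 0.131).

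The binding protein genes diverged. Igfbp7 (Entrez 29817), which encodes a matrix-associated protein with low affinity for IGFs, was 10.87, 10.88 and 10.75 in the controls and 8.35, 8.05 and 8.11 with miR-302. The samples of each group lay close together and the groups lay far apart. The mean went from 10.83 ± 0.07 to 8.17 ± 0.16 (SD, n = 3), a log2 difference of −2.66 ± 0.10 (SE; 95% interval −2.90 to −2.43), 6.33-fold lower (limma, adjusted p = 8.8e-05). The difference stayed between −2.75 and −2.60 with any 1 sample left out, and the call was kept each time.

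Igfbp4 (Entrez 16010), whose protein inhibits IGF action until the protease PAPP-A cuts it, was 6.83, 6.93 and 6.88 in the controls and 7.25, 8.02 and 7.94 with miR-302. The groups did not overlap, and replicate 1 was the sample nearest the controls. The log2 difference was 0.86 ± 0.20 (SE), 1.81-fold (limma, adjusted p = 0.0301), and 1.10 without miR-302 replicate 1 (adjusted p = 0.00039). Leaving out any other single sample ended the call (adjusted p from 0.0852 to 0.0999). Pappa, the PAPP-A gene, was 4.31 ± 0.18 and 4.48 ± 0.18 (adjusted p = 0.420), a level that cannot be told from background.

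Igfbp3 (Entrez 16009), the main IGF carrier gene in blood plasma, was 8.22, 8.31 and 8.38 in the controls and 8.50, 9.36 and 9.61 with miR-302. Replicate 1 was barely above the controls and the other two about 1 log2 unit above them. With all samples the difference was 0.85 ± 0.27 (SE; 95% interval 0.22 to 1.49) and was not called (limma, adjusted p = 0.0772), and without miR-302 replicate 1 it was 1.18 and called (adjusted p = 0.0010). Igfbp1, the coding gene next to Igfbp3, was not called (−0.25, adjusted p = 0.245).

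Igfbp2 (Entrez 16008), a binding protein gene of the early embryo, showed the reverse order among the miR-302 samples. It was 8.71, 8.55 and 8.47 in the controls and 9.64, 8.78 and 8.87 with miR-302, so that replicate 1 was the highest. The difference was 0.52 with a 95% interval from −0.01 to 1.05 (limma, adjusted p = 0.176), and 0.25 without replicate 1 (adjusted p = 0.113). Igfbp5 (Entrez 16011), the next coding gene after Igfbp2, was 4.30, 4.31 and 4.32 against 4.47, 4.30 and 4.44. These ranges overlapped (0.09, 95% interval −0.08 to 0.27; adjusted p = 0.456), at a level that cannot be told from background.

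**Figure D2:**
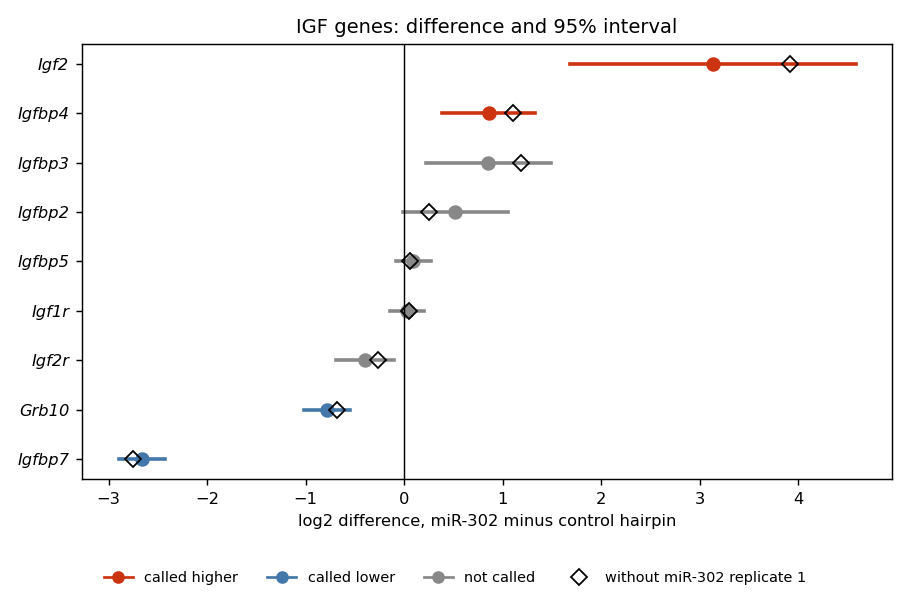
Log2 difference, miR-302 minus control hairpin, of each measured IGF gene with its 95% limma interval (n = 3 a group), coloured by call, and the difference without miR-302 replicate 1 (open diamonds). Igf2 spans 1.69 to 4.58 and Igfbp7 −2.90 to −2.43, whereas the intervals of Igf1r, Igfbp2 and Igfbp5 cross 0.

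miR-302 replicate 1 stood apart from the rest, and it did so in 2 directions among these genes. Of 22180 genes, 8.81% deviated by more than 0.5 log2 units from the mean of the other two samples of its group, against 1.65% to 3.67% for the other 5 samples. Of the 7 IGF genes whose groups did not overlap, replicate 1 was the miR-302 sample nearest the controls for 4 (Igf2, Igfbp3, Igfbp4 and Igfbp7) and the farthest from them for 3 (Grb10, Igf2r and Igfbp2). No batch or array date was used here, and what sets this sample apart was not tested.

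Of 27 other IGF and insulin pathway genes, 24 were measured. Of these, 5 were higher, against 7.18% of all genes, 2 were lower, against 9.25%, and 17 were not called (limma). Their median log2 difference was 0.12. Igfals, which encodes the acid-labile subunit that stabilises IGF complexes in plasma, fell from 6.48, 6.10 and 6.40 to 5.49, 5.38 and 5.49, a log2 difference of −0.87 ± 0.11 (SE; adjusted p = 0.0042), and it was called in all 6 fits that left out 1 sample. The higher genes were the adaptors Shc1 (log2 difference 0.40), Gab1 (0.32) and Sh2b1 (0.40), the insulin receptor substrate Irs1 (0.45) and the binding protein gene Igfbp6 (0.46), with adjusted p from 0.0300 to 0.0435. None of these 5 calls was stable to leaving out single samples, with 4 or 5 of 6 such fits losing each. None of the 5 rises reached 1.5-fold. Igfbp6 is named beyond the naming rule, with its value known.

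Irs2, the second main insulin receptor substrate, had the largest mean difference of the 24 and was not called. It was 8.21, 8.07 and 8.12 in the controls and 8.15, 9.42 and 9.66 with miR-302, so that replicate 1 lay among the controls (0.94 ± 0.37 SE; adjusted p = 0.136). The second ligand gene, Igf1, was 4.92, 5.07 and 5.29 against 5.29, 5.64 and 5.61, low levels that met at 5.29 (adjusted p = 0.0812). Igf2bp3, whose protein binds IGF2 mRNA, was 10.64 ± 0.03 and 10.78 ± 0.10 (adjusted p = 0.280). Igf2bp1, Igf2bp2 and Ins1 were not analysed here.

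**Figure D3:**
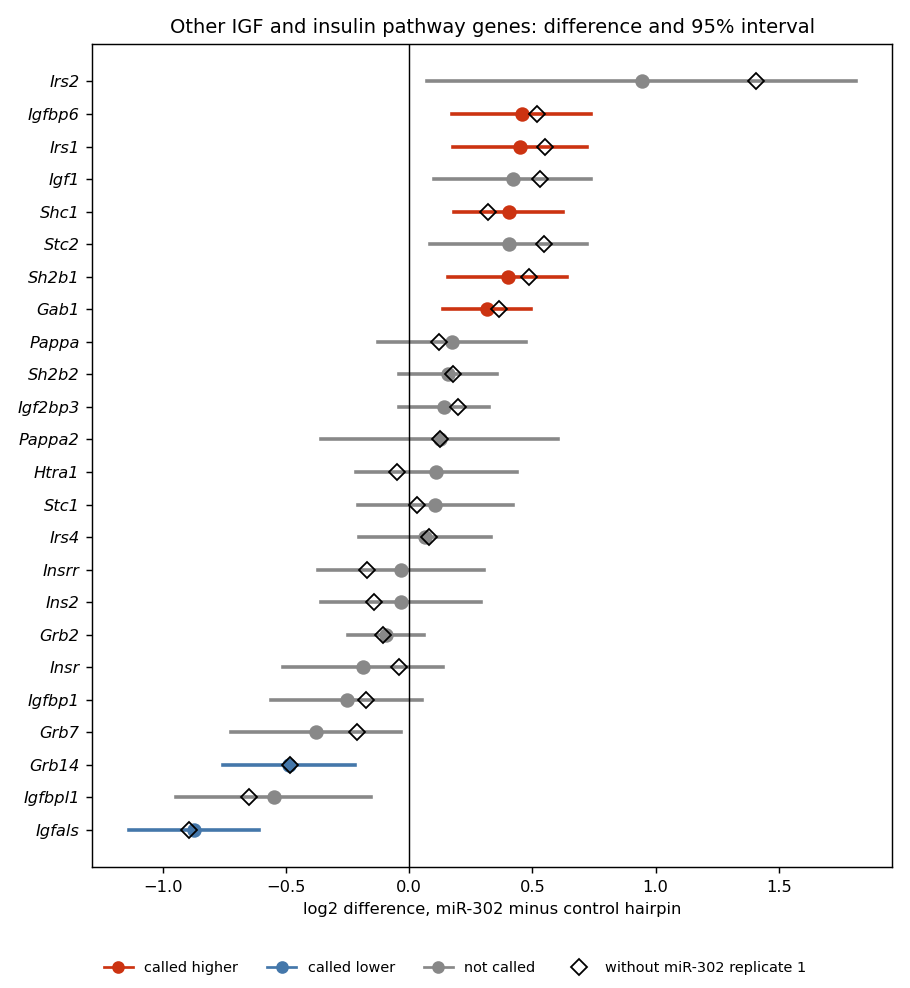
Log2 difference, miR-302 minus control hairpin, of 24 other IGF and insulin pathway genes with 95% limma intervals (n = 3 a group), coloured by call, and the difference without miR-302 replicate 1 (open diamonds). The 5 genes called higher lie between 0.32 and 0.46, Igfals is lowest at −0.87, and Irs2 has the widest interval.

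Of 16 genes listed for imprint control, 3 were higher, against 7.18% of all genes, 1 was lower, against 9.25%, and 12 were not called. Most encode proteins that set, keep or read imprints, and the list also holds the RNA-binding protein genes Lin28a and Lin28b and the imprinted transcription factor gene Plagl1. Imprints are parent-specific DNA methylation marks, and at Igf2 and H19 the unmethylated maternal control region binds the insulator protein CTCF. Ctcf was 10.56 ± 0.09 in the controls and 10.41 ± 0.20 with miR-302 (limma, adjusted p = 0.419). The de novo methyltransferase gene Dnmt3b rose by 1.60 ± 0.09 (SE), from 9.02, 9.08 and 9.15 to 10.52, 10.71 and 10.81. Dppa3, whose protein protects maternal methylation in the early embryo, rose by 1.31 ± 0.15, and Lin28a, whose product blocks let-7 maturation, by 1.25 ± 0.07. The maintenance methyltransferase gene Dnmt1 changed by −0.26 ± 0.06 (adjusted p = 0.0354), a call that 5 of 6 fits with a sample left out did not keep. DNA methylation itself was not measured.

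By a rule on pattern alone, the genes most like Igf2 over the 6 samples, among 518 named genes whose group means differed by at least 1 log2 unit, were Tns4, Cldn6, Slc25a24, Nrk and Fgfbp1. Their Pearson correlation with Igf2 was 0.9980 to 0.9993 over 6 samples. The samples form 2 groups that the choice of genes sets apart, so the value ranks genes and is no test. A low replicate 1 among the miR-302 samples is part of the pattern they were chosen for. Nrk, an X-linked kinase gene of the placenta, went from 5.01, 4.71 and 4.76 to 6.89, 10.20 and 10.29. The tight junction gene Cldn6 went from 7.58, 7.58 and 7.63 to 8.62, 9.89 and 10.02. The tensin gene Tns4 went from 5.34, 5.21 and 5.48 to 6.34, 7.75 and 7.88, and in the RefSeq order it is the next coding gene after Igfbp4. For Grb10, the same rule gave Xylt1, Rap1gap2, Tmem63a, Zfp455 and Psmb10, with correlations of 0.9964 to 0.9999. Their order among the samples, too, follows from the choice. Xylt1, a xylosyltransferase gene, went from 8.49, 8.43 and 8.44 to 7.05, 7.42 and 7.54.

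**Figure D4:**
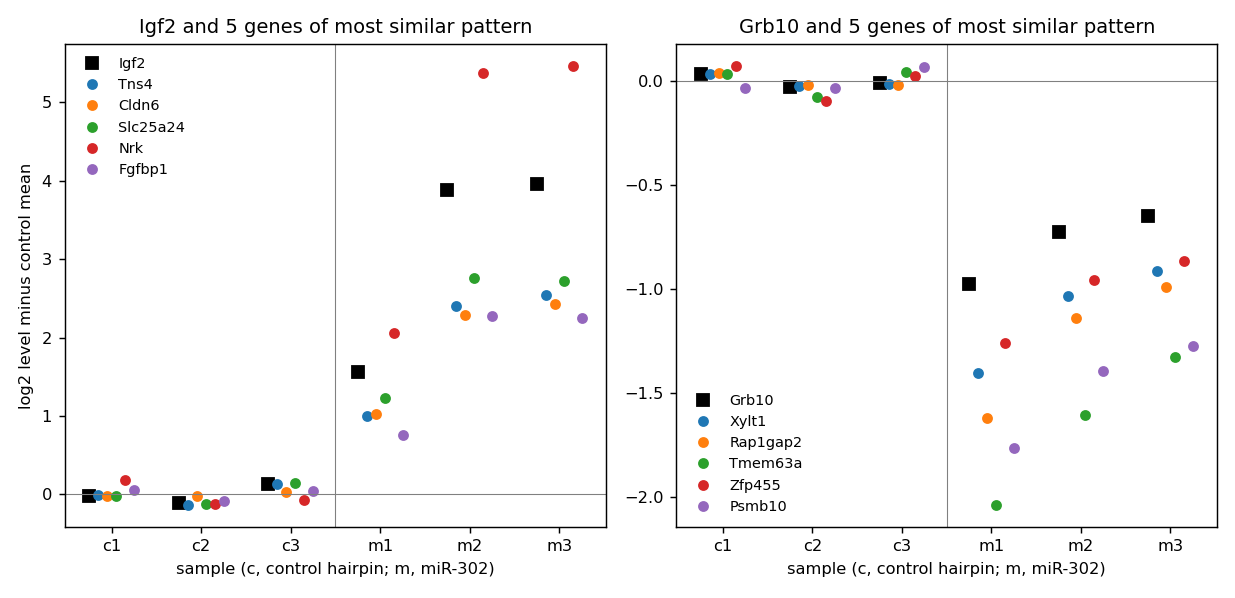
Log2 level minus the control mean in each sample (c, control hairpin; m, miR-302) for Igf2 (left, black) and Grb10 (right, black) with the 5 genes of most similar pattern. Igf2 and its 5 genes rise least in miR-302 replicate 1, and Grb10 and its 5 genes fall most there.

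Most markers of the labelled cell type had high levels in both groups, but Dppa5a did not (5.64 ± 0.18 in the controls and 5.44 ± 0.19 with miR-302). Of 10 ESC markers 0 were called, against 16.4% of all genes (limma; 1 higher and 2 lower at an unadjusted p under 0.05). These were Utf1 (higher) and Sox2 and Zfp42 (lower). The groups did not overlap for 5 of the 10 markers, against 35.8% of all genes. Those were the genes just named and Sall4 and Tdgf1, both higher. At the unadjusted threshold, 3145 of all 22180 genes were higher and 3553 lower with all samples. Sox2 went from 12.01 ± 0.03 to 11.68 ± 0.20 and Zfp42 from 11.23 ± 0.05 to 10.96 ± 0.17. Utf1 went from 11.93 ± 0.04 to 12.19 ± 0.17. Nanog was at 12.85 ± 0.03 and 12.74 ± 0.15 and Pou5f1 at 9.28 ± 0.05 and 9.32 ± 0.14. In each of 3 other settings (miR-302 replicate 1 left out, an intensity trend with a robust prior, or sample weights), 2 of the 10 were called lower. In that order, these settings called 5395, 4591 and 5621 of all 22180 genes. The mean level of the 10 was 10.61 to 10.64 in the controls and 10.47 to 10.75 with miR-302. Most markers of another cell type were higher with miR-302. Of 11 trophectoderm markers, the lineage that forms the placenta, 8 were higher, against 7.18% of all genes. None were lower, against 9.25% (limma; 9 higher and 0 lower at an unadjusted p under 0.05). Their mean level was 6.17 to 6.32 in the controls and 7.33, 8.05 and 8.03 in miR-302 replicates 1 to 3, again lowest in replicate 1. Eomes, Gata3 and Ascl2 rose by 1.36, 1.48 and 1.82 on the log2 scale. Of 11 primitive endoderm markers 2 were higher, against 7.18% of all genes, and 2 lower, against 9.25%. Their mean was 5.55 to 5.62 in the controls and 5.64 to 5.70 with miR-302. Leaving out any sample but miR-302 replicate 1 left 0 higher and 1 lower (limma; 2 or 3 higher and 2 lower at an unadjusted p under 0.05). Those fits called 1728 to 2077 of all 22180 genes. Of 12 fibroblast markers only Thy1 was lower, against 9.25% of all genes. None were higher, against 7.18% (limma; 3 higher and 1 lower at an unadjusted p under 0.05). Their mean was 5.36 to 5.40 in the controls and 5.37 to 5.56 with miR-302. The Thy1 call was lost in 5 of the 6 fits with a sample left out. Ascl2 counts in both the trophectoderm list and the list of imprinted neighbours. RMA values have no zero, so no marker could be read as absent. The part of trophectoderm-like cells in the rise of Igf2 was not tested.

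**Figure D5:**
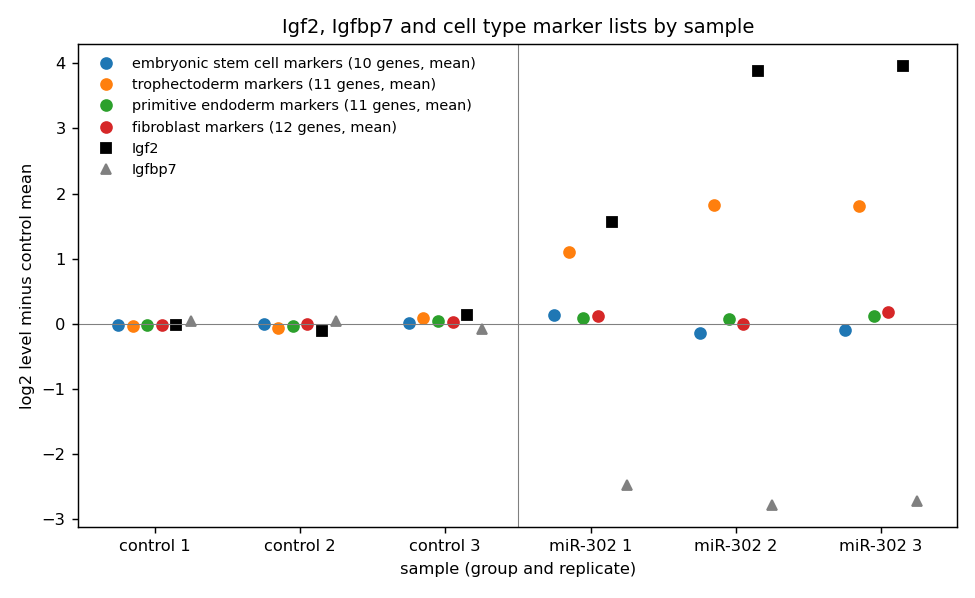
Log2 level minus the control mean in each sample for Igf2, Igfbp7 and the mean of 4 cell type marker lists (10 to 12 genes each). Igf2 and the trophectoderm mean are both less raised in miR-302 replicate 1, while Igfbp7, with a control mean of 10.83, is at 8.05 to 8.35 in all 3 miR-302 samples.

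The hairpin and the knockout could be checked only in part. The row of Dgcr8 is annotated to several genes and was not analysed here. Mir302b, the gene row of one family member, was 4.43, 4.32 and 4.15 in the controls and 4.58, 5.45 and 5.61 with miR-302 (log2 difference 0.91, adjusted p = 0.0585), lowest again in replicate 1. Control values this low cannot be told from background. Whether the probes of the Mir302b row see the hairpin construct is not given in the sources used here.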

How the data were processed

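RNA from 3 control hairpin and 3 miR-302 samples was measured on single-colour arrays. The authors deposited expression values made with RMA, per the submitters' processing notes, which name no version. The deposited values are taken as log2, the base RMA gives, since no source used here states it. RMA makes the arrays' distributions alike, so a shift of all genes cannot be seen, and sample medians were 5.60 to 5.62. Detection calls were not used. Of 33649 rows, 23521 carry 1 gene, 1814 several and 8314 none in the platform annotation. Keeping the highest row per gene left 22180 genes.

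The test was limma's moderated one (limma 3.58.1, lmFit and eBayes, two-sided, under R 4.3.3) with Benjamini-Hochberg adjustment over all genes at 0.05. The fit was tested on simulated data. Other settings were a block for replicate number, each sample left out, a filter on low genes, an intensity trend with a robust prior, median centring, other handling of several rows per gene, sample weights and a minimum fold. Named were all members, up to 6 called genes and preset genes of each pathway list, up to 3 of each marker list, and the 5 most similar genes. Nanog, Pou5f1, Dppa5a, Sall4, Tdgf1, Mir302b, Mrpl23, Grb7, Pappa, Igfbp1, Igfbp6, Ddc and Cobl were added after their values were seen. Members and lists were chosen with earlier results of these data known. Promoter and miRNA sequences came from RefSeq (GRCm38.p6). Figures used matplotlib 3.10.9 in Python 3.11.15.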

Additional observations from a re-analysis of the deposited data

How the results depend on the processing

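With 3 arrays a group, single samples moved many counts. Across all genes, 3643 were called, 1728 to 5395 with 1 sample left out (most without miR-302 replicate 1), 2293 with the replicate number as a replicate block, 5621 with sample weights and 1561 with a fold of at least 1.5. With all samples, 3145 of the 22180 genes were higher and 3553 lower at an unadjusted p under 0.05 (limma). Same-numbered samples did not deviate together (r = 0.019, 0.017 and 0.008), so the numbers are not taken as pairs. Of the IGF members, 2 were higher with all samples, 3 without miR-302 replicate 1 and 0 without any 1 of the other 5 (limma; 3 or 4 at an unadjusted p under 0.05). The 2 lower calls, Igfbp7 and Grb10, were kept in all 6 of these fits and in the 8 other settings. The small difference of Igf1r was −0.005 without control hairpin replicate 2, and 0.075 at most. Igf2r was called lower among genes at or above the median level, with an intensity trend and robust prior, and with sample weights, and Igfbp3 was called higher in the first and last of these. Of the other pathway genes, 5 were higher with all samples, 0 to 8 with 1 left out, 8 with sample weights, 0 with the replicate block (limma; 8 at an unadjusted p under 0.05) and 0 at a fold of at least 1.5. Lower were 2 with all samples, 1 to 3 with 1 left out, 1 at a fold of at least 1.5 and 1 when only the 12 genes reaching the median level were kept. The causes of these shifts were not tested.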

Other observations

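The sample with the smallest rise of Igf2 had the largest rise of Dnmt3l, which encodes the cofactor of the de novo DNA methyltransferases. Dnmt3l was 7.74, 7.68 and 7.51 in the controls and 10.10, 8.49 and 8.52 in miR-302 replicates 1 to 3, a log2 difference of 1.39 that was not called with all samples (limma, adjusted p = 0.0671) and was 0.86 without replicate 1. Dppa3 had the same order, with 6.58, 5.99 and 6.17 against 4.88, 4.96 and 4.98 in the controls. Phlda2, an imprinted gene of the placenta from the same chromosome region as Igf2, was lowest in replicate 1 as Igf2 was, with 6.59, 7.94 and 7.80 against 6.47, 6.52 and 6.38 (adjusted p = 0.0975). Dnmt3l and Phlda2 were chosen after their values were seen, and no relation between these genes was tested.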
